A study of Mus musculus with 12 samples.

Results

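Type I interferon response and antigen processing genes were followed in mouse mammary tumour organoids in which Cldn7, the gene of the tight junction protein claudin 7, was lowered with lentiviral hairpins. The 35 genes were taken from the gene count table by symbol, from a listed set, and were 35 of the 25861 genes in the table. All 35 were among the 17025 genes that passed the filter on low counts. By role they were 5 transcription factors and feedback regulators, 4 sensors of foreign nucleic acid, 6 genes of ISG15 and of ubiquitin or ADP-ribose transfer, 12 antiviral effectors, 5 other interferon-induced genes and 3 antigen processing genes. The question was whether the 2 hairpins differed in these genes when libraries of the same replicate number were compared.

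The organoids came from primary MMTV-Neu tumours, which arise where the promoter of the mouse mammary tumour virus expresses the oncogene Neu in the mammary epithelium, and were grown in collagen I for 5 days in medium with 2.5 nM FGF2 before RNA-seq. There were 3 groups of 4 libraries, labelled as wild type in genotype: shControl with a non-targeting hairpin, and sh1Cldn7 and sh2Cldn7 with hairpins 1 and 2 against Cldn7. Every group, the control included, had received lentivirus at a multiplicity of infection of 20 and puromycin at 3 µg/ml for 3 days, so no group was free of virus. Neither the animals' age nor whether replicates came from separate animals or cultures is stated, so the p-values reflect the spread among these libraries alone, which may be technical.

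Type I interferons are secreted proteins that cells make when they sense foreign or misplaced nucleic acid. They bind the receptor of Ifnar1 and Ifnar2, whose kinases Jak1 and Tyk2 phosphorylate STAT2. STAT2 and IRF9 are subunits of the complex ISGF3, which binds the interferon-stimulated response element (ISRE) of antiviral genes, whereas the gamma-activated site (GAS) serves mainly the response to interferon gamma. In mammary tumours this response is known in epithelial cells as well as in the immune cells around them.

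Promoter sequences are shown for some members that held a match, because the ISRE is the element these genes are known to share. RefSeq promoters (GRCm38.p6, 250 bases before to 50 bases after each start) were matched for 25 of the 35 genes. The ISRE core was searched on both strands as GAAA, any 2 bases and GAAA, and was present in 9 of the 25 (36%), against 3.99% of 27025 genes and 3.44% of 32851 windows of the same 300 bases. The GAS, searched as TTC, any 3 bases and GAA, which reads alike on both strands, was present in 7 of the 25 (28%), against 9.55% of genes and 8.3% of windows. In Bst2 the GAS match overlapped an ISRE match. Of the genes followed library by library below, Parp9 and Mx2 had no matched promoter. Herc6 held no match of either element, and Samhd1 held a GAS match alone, which is not shown. Each line gives 15 bases on either side of a match, 5′ to 3′ on the gene's own strand, with the match in capitals. Where the element lies on the other strand it reads as its reverse complement. Isg15 held 3 ISRE matches, and Bst2, Ifit1 and Ifit3 held 2 each. Only 1 is shown for each gene, and bases in lower case can belong to another match.
Stat2 ISRE, chr10:128270261-128270300 (+), first base of the match at position -222: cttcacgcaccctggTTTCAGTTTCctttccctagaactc
Bst2 ISRE, chr8:71537572-71537611 (-), position -124: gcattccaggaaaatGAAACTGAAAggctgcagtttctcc
Ifit1 ISRE, chr19:34640789-34640828 (+), position -85: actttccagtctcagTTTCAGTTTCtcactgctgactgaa
Ifit3 ISRE, chr19:34583392-34583431 (+), position -122: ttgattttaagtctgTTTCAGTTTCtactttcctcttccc
Isg15 ISRE, chr4:156200866-156200905 (-), position -72: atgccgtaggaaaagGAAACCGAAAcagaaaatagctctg
Oas3 ISRE, chr5:120777710-120777749 (-), position -75: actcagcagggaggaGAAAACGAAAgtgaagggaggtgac
Irf1 GAS, chr11:53769909-53769947 (+), position -90: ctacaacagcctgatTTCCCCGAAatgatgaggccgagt
Psmb8 GAS, chr17:34198083-34198121 (+), position -97: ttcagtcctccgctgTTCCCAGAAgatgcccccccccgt
The antiviral effectors held an ISRE match in 5 of 9 matched promoters, whereas the 3 antigen processing genes held none. A GAS match was present in 3 of the 9 effectors and in 1 of the 3 antigen processing genes, Psmb8 (33.3% each). A match is a run of letters and was not tested as a binding site.

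Total counts were 34988358 to 44645514 in replicates 1 and 2 and 68581024 to 76329473 in replicates 3 and 4. Cldn7 was at 101 to 186 CPM, the count scaled to a common library size, in the control libraries and at 25.4 to 44.2 CPM in the hairpin libraries. It fell by 2.07 on the log2 scale with hairpin 1 and by 2.30 with hairpin 2, and the hairpins differed by -0.23 (edgeR adjusted p = 0.149). Checked against the labelled epithelial origin, Epcam and Krt8 stood at 802 to 1860 and 603 to 1320 CPM in the 12 libraries. Ptprc, a marker of all leukocytes, was at 2.18 to 9.21 CPM in replicates 1 and 2 and at 0 to 0.179 CPM in replicates 3 and 4. The 22 macrophage and leukocyte markers summed to 274 to 478 CPM in replicates 1 and 2 and to 154 to 299 CPM in replicates 3 and 4, where C1qb was at 0 in every library. The 12 fibroblast markers summed to 750 to 2340 CPM in replicates 1 and 2, to 266 to 586 CPM in replicate 3 and to 4510 to 9470 CPM in replicate 4.

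The interferon genes varied more by replicate number than by hairpin. Their summed level was 3760, 4490, 6880 and 3260 CPM in control replicates 1 to 4. It was 3180, 5670, 6790 and 2620 CPM with hairpin 1, and 3540, 6530, 7410 and 4790 CPM with hairpin 2. Replicate 3 was the highest control library for 31 of the 35 genes, and replicate 4 the lowest for 23. With hairpin 1 the highest library was replicate 3 for 29 genes and the lowest was replicate 4 for 24, whereas with hairpin 2 the lowest was replicate 1 for 29. The highest control library exceeded the lowest by 1.23 times for Trim25, a ubiquitin ligase that activates RIG-I, and by 7.78 times for Rsad2, the gene of the antiviral enzyme viperin. The replicate 3 libraries, which were highest for most of these genes, held 0, 1 and 6 counts of Ptprc in the control, hairpin 1 and hairpin 2 groups. The 22 macrophage and leukocyte markers summed to 184, 162 and 299 CPM in the same libraries. The 299 CPM of hairpin 2 replicate 3 lay within the 274 to 478 CPM of replicates 1 and 2. In bulk RNA, fewer cells that express a gene and less RNA of it per cell cannot be told apart.

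**Figure D1:**
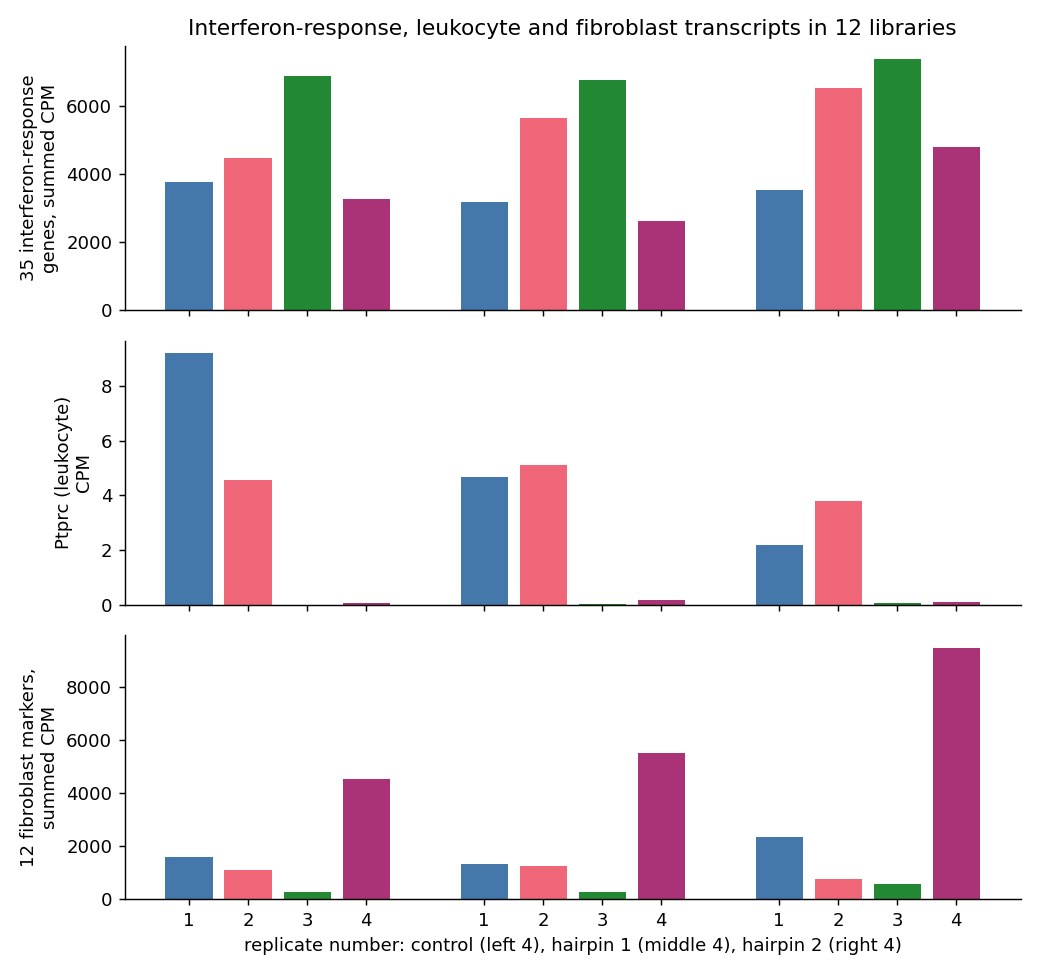
Summed CPM of the 35 interferon-response genes (top), CPM of the leukocyte marker Ptprc (middle) and summed CPM of 12 fibroblast markers (bottom) in each of the 12 libraries, 1 bar a library, coloured by replicate number. The interferon genes were highest in replicate 3 of each group (6880, 6790 and 7410 CPM), where Ptprc was at 0 to 0.0765 CPM, and the fibroblast sum was highest in replicate 4 (4510, 5490 and 9470 CPM). The 22 macrophage and leukocyte markers, not drawn, summed to 184, 162 and 299 CPM in replicate 3 of the control, hairpin 1 and hairpin 2.

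For the same reason a model without the replicate number had a much larger spread. The median biological coefficient of variation of the 35 genes was 0.152 with the replicate number and 0.421 without it. Over the 5711 tested genes in the same range of mean level the medians were 0.0751 and 0.205. The 35 genes also moved together: after group and replicate means were removed, the median Pearson correlation over 595 gene pairs was 0.88 (range -0.4 to 1), and 588 pairs were positive. These correlations rest on the same 12 libraries and their scaling factors, were not computed for other genes, and are given as a description. The members that followed the others least were Trim25, Ifi27 and Samhd1, with median correlations of 0.31, 0.34 and 0.42.

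Between the hairpins, 2 of the 35 genes rose with hairpin 2 over hairpin 1 and 33 did not pass the test. The 2 were Stat2, the interferon-specific subunit of ISGF3, with a log2 fold change of 0.54 (SE 0.12, edgeR adjusted p = 0.0342), and Parp9, an ADP-ribose transferase partner of the ligase DTX3L, with 0.53 (SE 0.11, adjusted p = 0.0279). Among all genes tested 3.44% were called in this comparison and 1.57% were called higher, against 2 of 35 (5.71%) for the members, a count too small to read as a difference. The estimates were on 1 side: 33 of 35 were positive, the median was 0.38 and the range was -0.12 to 0.84, whereas over all genes 8777 of 17025 were positive and the median was 0.01. Before adjustment, 20 of the 35 had p under 0.05, against 3414 of the 17025 genes tested. Values of the hairpin groups overlapped for each of the 35 genes. This overlap sets the replicate number aside, and its share over all genes tested was not counted. Without the replicate number in the model no member was called and none had an unadjusted p under 0.05, with a median of 0.30 and adjusted p = 1 for both Stat2 and Parp9. With DESeq2, 6 members rose: Stat2, Parp9, Isg15, Herc6, Mx2 and Samhd1. DESeq2 also called more of all genes tested, 7.97% in either direction and 3.83% higher.

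By replicate number, the median difference between hairpin 2 and hairpin 1 over the 35 genes was 0.25, 0.20, 0.11 and 0.98 log2 CPM in replicates 1 to 4 (mean 0.39, SD 0.4). The number of genes higher with hairpin 2 was 28, 30, 28 and 34 of 35, and over all genes the median difference was at most 0.011 in each replicate. Replicate 4 thus stood above the other 3, which lay close to each other. In all 4 replicates 24 of the 35 genes (68.6%) were higher with hairpin 2, against 15.6% of all genes tested, although Eif2ak2 and Ifi35 in this count differed by 0.00 in replicate 3. Ifi27 was lower in all 4. The fitted median of 0.38 dropped to 0.24 without hairpin 1 replicate 4, to 0.21 without hairpin 2 replicate 4 and to 0.17 without replicate 4 as a whole, with 28 of 35 still positive. Within replicates 1 and 2 it was 0.18, and within replicates 3 and 4 it was 0.53. In replicate 4 the fibroblast markers summed to 5490 CPM with hairpin 1 and 9470 CPM with hairpin 2. In the whole comparison 11 of these 12 markers were positive and 3 rose (Dcn, Col6a1 and Col6a2), where edgeR called 1.57% of all genes tested higher. In replicate 2 the same sum was lower with hairpin 2 (750 against 1250 CPM). The 13 mitochondrially encoded genes, a sign of RNA quality, all had negative estimates between the hairpins (median -0.29), with 8 at an unadjusted p under 0.05, none called by edgeR and 3 by DESeq2. The 22 macrophage and leukocyte markers had a median of -0.40, with 6 positive and none called by edgeR (2 at an unadjusted p under 0.05); DESeq2 called Cd14, which was higher. The part of fibroblast, leukocyte and mitochondrial transcripts in the interferon differences was not tested.

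**Figure D2:**
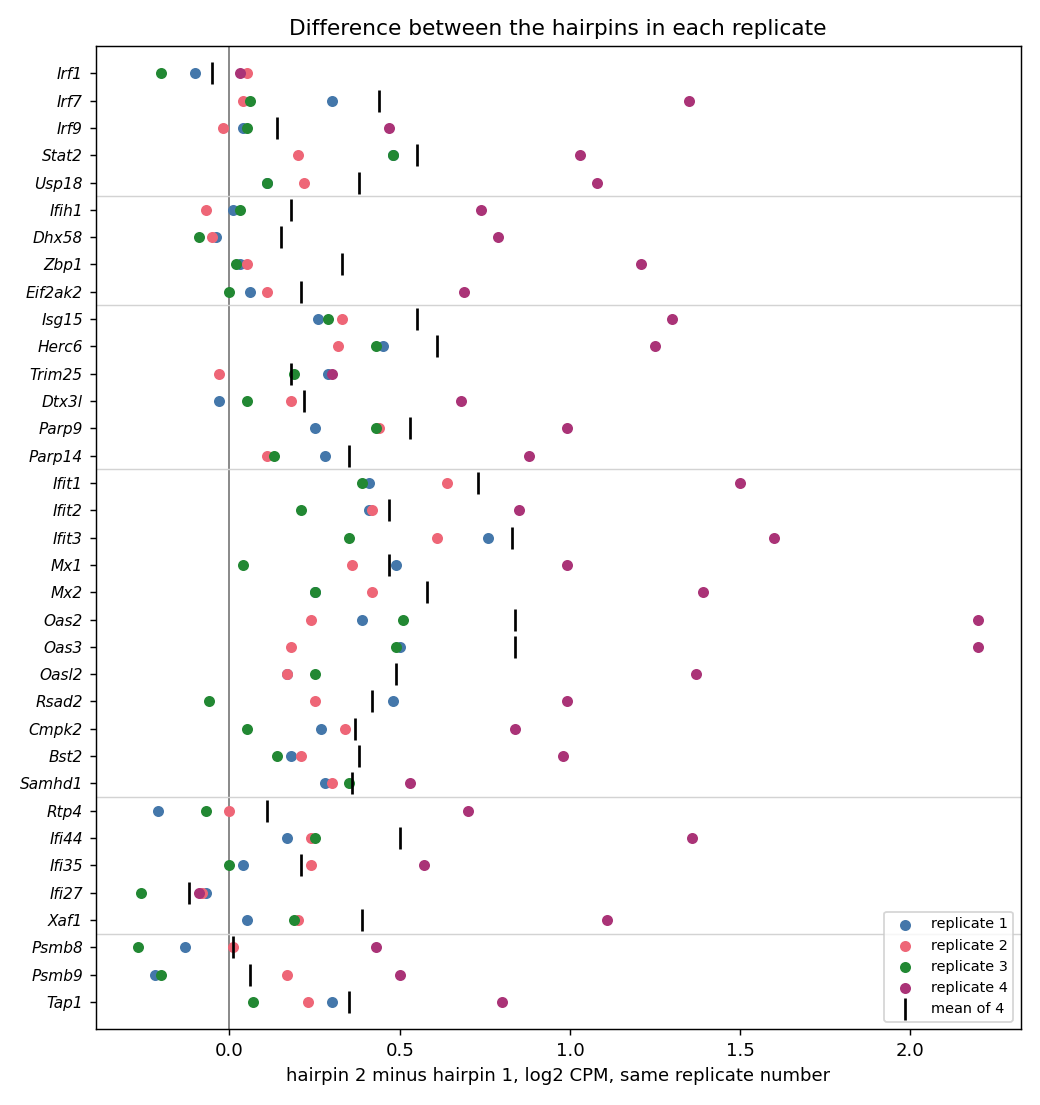
Difference between hairpin 2 and hairpin 1 in log2 CPM for each of the 35 genes, 1 point per replicate number, with the mean of the 4 as a vertical bar and grey lines between role groups. The replicate 4 points lie to the right of the others for most genes, with a median of 0.98 against 0.11 to 0.25 in the other replicates.

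Stat2 (chromosome 10, 128270559 to 128292849, plus strand, GRCm38) was at 71.6, 116, 109 and 95.9 CPM in control replicates 1 to 4. It was at 60.4, 137, 116 and 71.5 CPM with hairpin 1, and at 84.2, 157, 161 and 146 CPM with hairpin 2. Within each replicate number the hairpin 2 library was the highest of the 3, although the groups overlapped because replicate 1 was low throughout. Hairpin 2 exceeded hairpin 1 by 0.48, 0.20, 0.48 and 1.03 log2 CPM in replicates 1 to 4. The adjusted p passed 0.05 in 6 of 16 fits that left out libraries. Of all genes tested, 0.381% to 3.95% were called in these fits, against 3.44% in the main model. The call was lost without replicate 1, 3 or 4 of hairpin 1 (0.115, 0.0967, 0.0842), without replicate 1, 3 or 4 of hairpin 2 (0.0691, 0.0592, 0.0857) and without any whole replicate (0.052 to 0.154), all edgeR adjusted p. It was also lost in the fit of the 2 hairpin groups alone (0.0631).

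The other members of its group are also regulators. Irf7, the factor that amplifies interferon alpha transcription, was the highest per length with 91.3 reads per kilobase of exon, scaled as CPM (RPKM) in the controls, followed by Usp18, which removes ISG15 and dampens the receptor, with 33.9 RPKM. Their log2 fold changes between the hairpins were 0.43 (SE 0.20) and 0.39 (SE 0.17). Irf9, the DNA-binding subunit of ISGF3, was at 0.13 (SE 0.08), and Irf1, which is induced mainly through a GAS, was at -0.05 (SE 0.07). Stat2 was the 1 gene of these 5 that rose, and 2 had an unadjusted p under 0.05.

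The 4 sensors, Ifih1 (MDA5), Dhx58 (LGP2), Zbp1 and Eif2ak2 (the kinase PKR), did not pass with edgeR or DESeq2 between the hairpins, and none had an unadjusted p under 0.05 with edgeR. Their estimates were 0.15 to 0.33 with a median of 0.20. The highest per length were Dhx58 and Eif2ak2, with 27.1 and 25.5 RPKM in the controls. Zbp1, a sensor of Z-form nucleic acid, differed by 0.03, 0.05 and 0.02 in replicates 1 to 3 and by 1.21 log2 CPM in replicate 4.

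Among the 6 genes of ISG15 and of ubiquitin or ADP-ribose transfer, all estimates were positive, with a median of 0.44, and Parp9 alone rose. Parp9 (chromosome 16, 35938470 to 35972605, plus strand) was at 160, 206, 280 and 148 CPM in the controls. With hairpin 1 it was at 123, 184, 210 and 103 CPM, and with hairpin 2 at 146, 250, 283 and 205 CPM. The hairpin 1 library was the lowest of the 3 in every replicate number, and the groups overlapped. Against the control, Parp9 differed by -0.37 with hairpin 1 (SE 0.11, edgeR adjusted p = 0.168) and by 0.16 with hairpin 2 (SE 0.11, adjusted p = 0.400). With DESeq2, and in an edgeR fit of the hairpin 1 and control libraries alone, the lower level with hairpin 1 passed (adjusted p = 0.0462 and 0.0316). Its call between the hairpins was lost without any library of hairpin 1 (adjusted p 0.0708, 0.0655, 0.0989 and 0.093 for replicates 1 to 4), without hairpin 2 replicate 2 (0.0575) and without any whole replicate (0.0734 to 0.102). The fit of the 2 hairpin groups alone lost it as well (0.0602). Parp9 shares 9.4% of its exon bases with Dtx3l, which lies on the opposite strand, and reads there may have been counted for either gene. Dtx3l itself differed by 0.23 (SE 0.11).

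Isg15, the ubiquitin-like modifier, was the highest of this group per length with 132 RPKM in the controls, and it was 0.55 higher with hairpin 2 than with hairpin 1 (SE 0.19, edgeR adjusted p = 0.133). Herc6, the main ISG15 ligase of the mouse, was at 38.7, 56.9, 75.4 and 52.0 CPM in the controls. With hairpin 1 it was at 27.1, 68.7, 70.1 and 39.5 CPM, and with hairpin 2 at 37.2, 85.5, 94.3 and 94.0 CPM. In the hairpin 2 group replicate 1 was far below the other 3, and the groups overlapped. The log2 fold change between the hairpins was 0.62 (SE 0.16, edgeR adjusted p = 0.0645), and it passed with DESeq2 (0.00507), with no filter (0.034) and with total counts as the only scaling (0.0496).

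**Figure D3:**
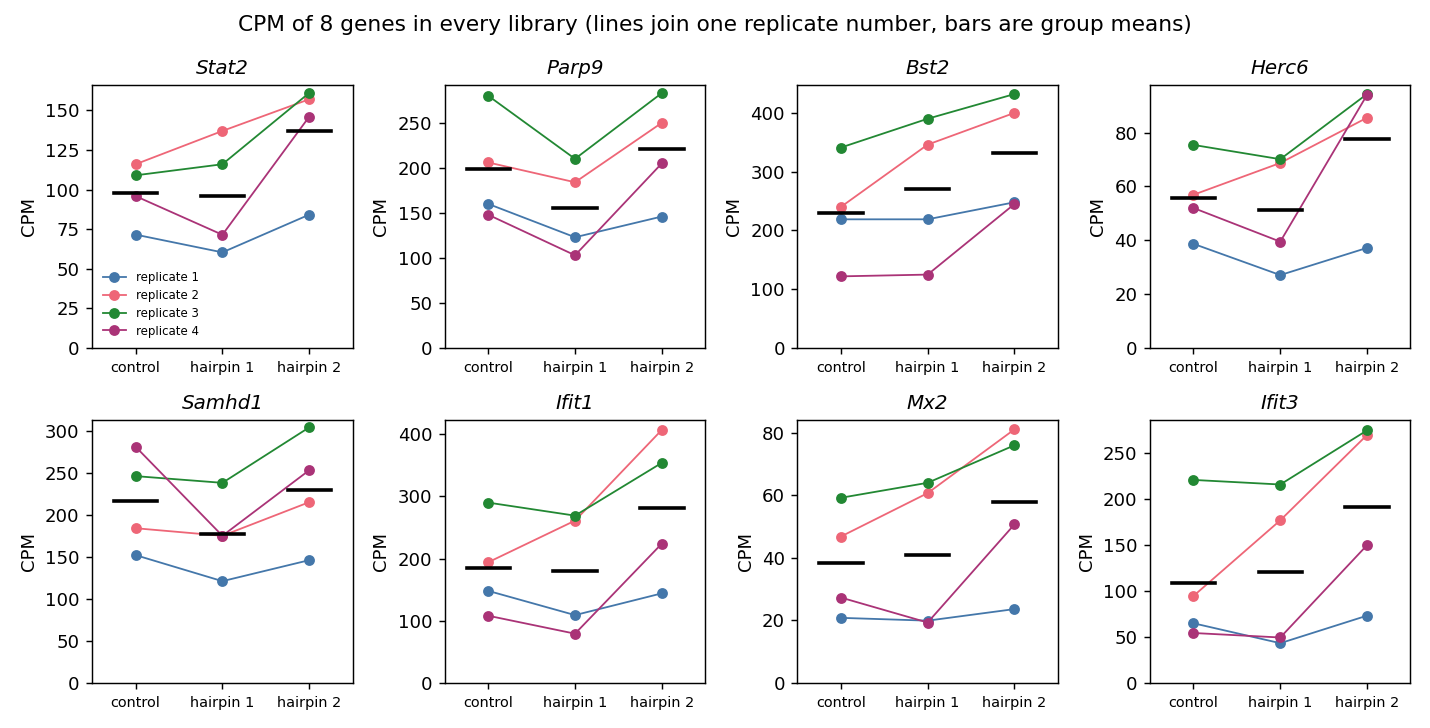
CPM of 8 genes in each of the 12 libraries; thin lines join libraries of the same replicate number and thick bars are group means of 4 libraries. Replicate 4 (purple) rises steeply from hairpin 1 to hairpin 2, for Stat2 from 71.5 to 146 CPM and for Herc6 from 39.5 to 94.0 CPM, and replicate 3 (green) lies high in all groups.

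None of the 12 antiviral effectors passed the edgeR test between the hairpins, although all 12 estimates were positive, the median was 0.49 and 10 had an unadjusted p under 0.05. Of all 17025 genes tested, 3414 had such a p. DESeq2 called 2 of the 12 effectors, Mx2 and Samhd1. Ifit1, whose protein binds viral RNA that lacks the host cap mark, was at 148, 194, 290 and 108 CPM in the controls. With hairpin 1 it was at 109, 261, 269 and 79.1 CPM, and with hairpin 2 at 144, 407, 354 and 224 CPM. Hairpin 2 was above hairpin 1 in every replicate number, but the groups overlapped widely, and the log2 fold change was 0.75 (SE 0.20, edgeR adjusted p = 0.0708; 0.0374 with no filter).

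Ifit3, a partner of IFIT1, had the highest estimate of the 35 genes, at 0.84 (SE 0.25, edgeR adjusted p = 0.0987). Its levels were 64.9, 94.6, 221 and 54.3 CPM in the controls, 43.2, 177, 216 and 49.4 CPM with hairpin 1, and 73.2, 270, 275 and 150 CPM with hairpin 2. Replicates 2 and 3 were high and replicates 1 and 4 low in each group, so that the groups overlapped. Ifit3 shares 51.2% of its 50-base words with its neighbour Ifit3b, so its counts are uncertain. Oas2 and Oas3, synthetases of the messenger that activates RNase L, came next with 0.81 (SE 0.26) and 0.83 (SE 0.27). Each differed by 2.20 log2 CPM between the hairpins in replicate 4 and by 0.18 to 0.51 in the other replicates.

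Mx2, a dynamin-like GTPase annotated as a polymorphic pseudogene in the mouse, was at 20.8, 46.8, 59.2 and 27.3 CPM in the controls. With hairpin 1 it was at 19.9, 60.7, 64.0 and 19.3 CPM, and with hairpin 2 at 23.6, 81.1, 76.0 and 50.7 CPM. The hairpin 2 library was again the highest of each replicate number while the groups overlapped, and the difference between the hairpins was 0.58 (SE 0.17, edgeR adjusted p = 0.0978). The corresponding DESeq2 value was 0.0197.

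Samhd1, which depletes the nucleotides that reverse transcription needs, was the effector whose hairpin difference varied least across replicates (SD 0.12). It was at 152, 184, 246 and 281 CPM in the controls, at 121, 175, 238 and 175 CPM with hairpin 1, and at 146, 215, 304 and 253 CPM with hairpin 2. The hairpin 1 library was the lowest of the 3 in every replicate number, and hairpin 2 exceeded it by 0.28, 0.30, 0.35 and 0.53 log2 CPM. The difference was 0.36 (SE 0.09, edgeR adjusted p = 0.0684). It passed with DESeq2 (0.0126), in the fit of the 2 hairpin groups alone (0.0315) and without control replicate 3 (0.0493) or control replicate 4 (0.0282).

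Bst2, which tethers budding virions to the cell surface, was the most abundant member per length, with 255 RPKM in the controls. It was at 219, 240, 341 and 122 CPM in the controls, at 219, 346, 390 and 125 CPM with hairpin 1, and at 248, 400, 432 and 245 CPM with hairpin 2. The order within each replicate number was hairpin 2 above hairpin 1, with hairpin 1 at or above the control, while the groups overlapped. Bst2 (chromosome 8, 71534255 to 71537456, minus strand) differed by 0.38 between the hairpins (SE 0.14, edgeR adjusted p = 0.167) and rose with hairpin 2 over the control, as given below. The remaining effectors, Ifit2, Mx1, Oasl2, Rsad2 and Cmpk2, had estimates between 0.38 and 0.49.

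The 5 other interferon-induced genes and the 3 antigen processing genes did not pass with edgeR or DESeq2 between the hairpins; 2 of the first and 1 of the second had an unadjusted p under 0.05. Ifi27, a mitochondrial protein with 187 RPKM in the controls, was at 269, 224, 303 and 228 CPM with hairpin 1 and at 257, 211, 253 and 214 CPM with hairpin 2. It was lower with hairpin 2 in all 4 replicates, by 0.07 to 0.26, against the direction of most of these genes, with a fitted difference of -0.12 (SE 0.07, edgeR adjusted p = 0.330). Rtp4, a receptor chaperone with 101 RPKM in the controls, was at 0.11 (SE 0.13). Ifi44, Xaf1 and Ifi35 were at 0.50 (SE 0.18), 0.39 (SE 0.15) and 0.22 (SE 0.10).

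Psmb8 and Psmb9, the interferon-inducible subunits of the immunoproteasome, differed by 0.02 (95% interval -0.28 to 0.32) and 0.08 (-0.27 to 0.42) between the hairpins. Tap1, a subunit of the peptide transporter, differed by 0.35 (0.09 to 0.61, edgeR adjusted p = 0.132). Psmb8 was at 149, 204, 333 and 100 CPM with hairpin 1 and at 136, 205, 277 and 135 CPM with hairpin 2, so that hairpin 2 was higher in 2 replicates and lower in 2. In the model with the replicate number, the intervals of Psmb8 and Psmb9 exclude differences of the size fitted for Stat2. No test compared these genes with each other. Tap1 and Psmb9 overlap on opposite strands in 3.87% and 5.79% of their exon bases.

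Each hairpin was also compared with the same 4 control libraries, so the values that follow are not independent of each other. With hairpin 1, 0 of the 35 genes were called by edgeR, against 0.728% of all genes tested; 2 had an unadjusted p under 0.05 (Parp9 and Samhd1) and DESeq2 called 1, Parp9, which was lower (DESeq2 called 3.35% of all genes tested, with 1.72% of all genes tested higher). Of all 17025 genes tested, 2176 had an unadjusted p under 0.05 with edgeR. The estimates of the 35 genes ran from -0.37 to 0.20 with a median of -0.06, 12 positive and 23 negative. By replicate number the median difference was -0.21, 0.38, -0.04 and -0.32 in replicates 1 to 4. Thus 33 of 35 genes were above the control in replicate 2, and 2, 13 and 4 of 35 in replicates 1, 3 and 4.

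With hairpin 2 against the control, 2 of 35 genes rose, Stat2 and Bst2, against 5.76% of all genes tested that were called and 2.83% that rose. Stat2 was 0.46 higher (SE 0.12, edgeR adjusted p = 0.0440) and Bst2 0.57 higher (SE 0.14, adjusted p = 0.0421). The estimates ran from -0.21 for Ifi27 to 1.02 for Oas3 (SE 0.27, edgeR adjusted p = 0.0555), with 32 of 35 positive, a median of 0.31 (over all genes 0.00) and 15 with an unadjusted p under 0.05 (over all genes 3841 of 17025). The median difference was -0.08, 0.49, 0.08 and 0.65 log2 CPM in replicates 1 to 4, with 10, 34, 25 and 32 genes above the control. Replicates 2 and 4 therefore carried most of the difference, and in replicate 1 most genes lay below the control. The 12 fibroblast markers were all positive in this comparison (median 0.56), with Dcn and Pdgfrb called, and the 13 mitochondrial genes all negative (median -0.27). Without the replicate number no member was called (Stat2 0.48, SE 0.29; Bst2 0.52, SE 0.39; adjusted p = 1 for both) and none had an unadjusted p under 0.05.

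The calls with hairpin 2 against the control were lost in most fits that left out libraries. Stat2 passed in 3 of 16 such fits (edgeR adjusted p 0.0208 to 0.15) and Bst2 in 2 of 16 (0.0361 to 0.113). Their estimates stayed at 0.36 to 0.54 and at 0.39 to 0.70. The share of all genes tested that was called ran from 1.13% to 6.12% in these fits, against 5.76% in the main model. Stat2 kept its call only without hairpin 1 replicate 2 or 4 or hairpin 2 replicate 2, and Bst2 only without hairpin 1 replicate 4 or hairpin 2 replicate 3. Mx1 passed without control replicate 1 (0.0405), Ifit3 without hairpin 2 replicate 3 (0.0493), and Mx2, Oas2 and Oas3 without hairpin 1 replicate 4 (0.0278, 0.0276 and 0.0236). The median of 0.31 became 0.18 without control replicate 2, 0.11 without hairpin 2 replicate 4, 0.48 without replicate 1, 0.21 without replicate 2 and 0.16 without replicate 4. In an edgeR fit of the hairpin 2 and control libraries alone neither passed (adjusted p = 0.0598 for Stat2 and 0.129 for Bst2). That fit called 0.588% of all genes tested. DESeq2 called 7 members: Stat2, Bst2, Isg15, Mx1, Mx2 and Oas3 rose and Ifi27 fell. Among all genes tested DESeq2 called 10.6% in this comparison, 5.38% of all genes tested being higher.

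**Figure D4:**
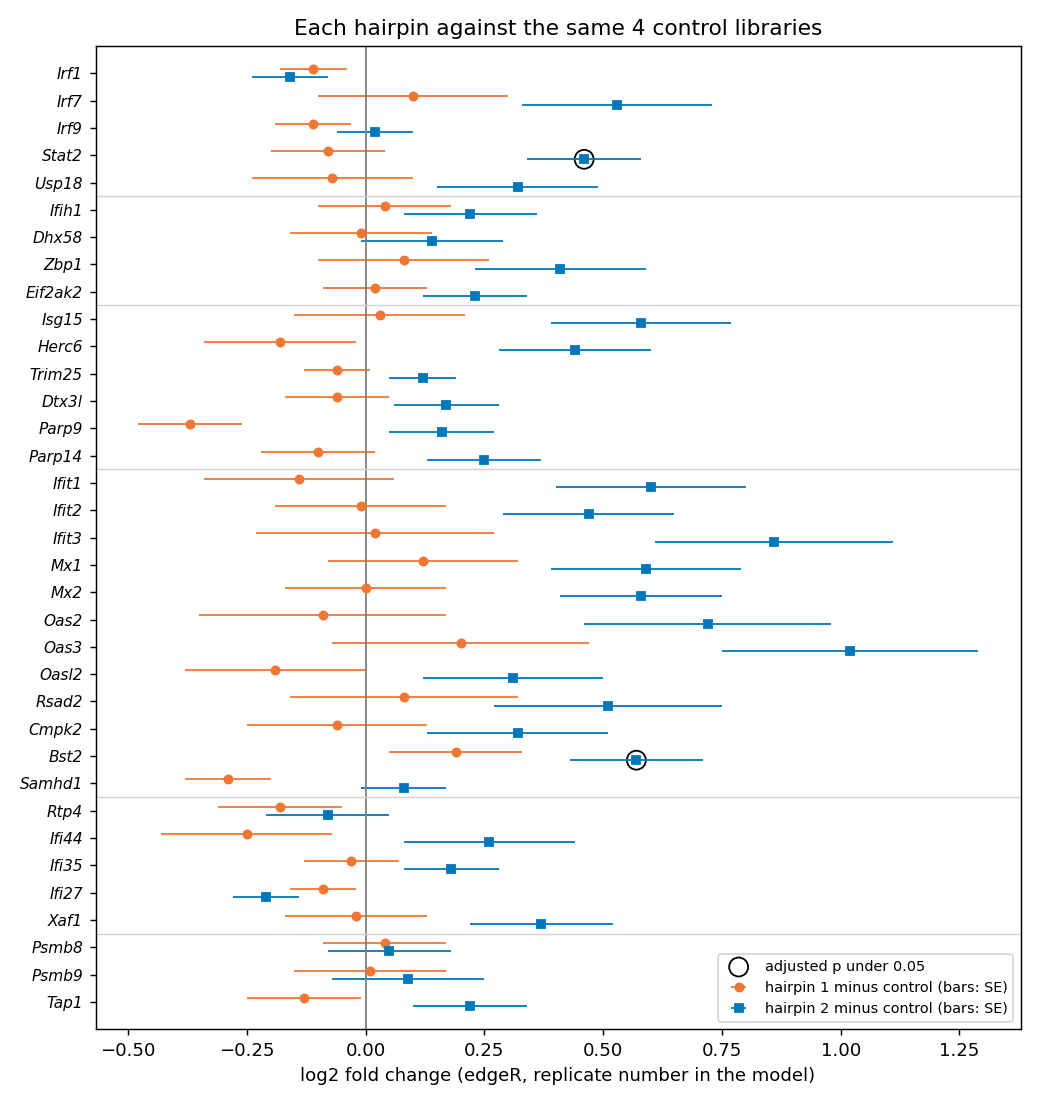
Fitted log2 fold change of each of the 35 genes against the 4 control libraries with the replicate number in the model, hairpin 1 as orange circles and hairpin 2 as blue squares; bars are 1 SE and black rings mark adjusted p under 0.05. Hairpin 1 estimates lie around 0 (median -0.06) and 32 of 35 hairpin 2 estimates lie above 0 (median 0.31), with rings on Stat2 and Bst2.

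Averaged over both hairpins, 0 of 35 genes were called by edgeR, against 1.79% of all genes tested. The median was 0.13, 29 genes were positive, and 3 had an unadjusted p under 0.05 (Bst2, Oas3 and Ifi27), against 2925 of the 17025 genes tested. With DESeq2 Bst2 rose, by 0.38, against 6.33% of all genes tested that DESeq2 called and 3.35% that it called higher.

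Whether the hairpin difference itself differed between replicates 1 and 2 and replicates 3 and 4 was tested with an interaction term. No member was called by edgeR, and over all genes tested the share called was 0%; 1 member had an unadjusted p under 0.05 (Oas2, 1.03 larger in replicates 3 and 4), and its edgeR adjusted p was 1. DESeq2 called no member either. The test pools replicates 3 and 4, where the median difference over the 35 genes was 0.11 and 0.98 log2 CPM. It therefore cannot show whether replicate 4 alone departed from the others.

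The rest of the pathway was read from lists around the 35 genes. Of 21 interferon ligand genes, 3 had enough counts to be tested, and none was called by edgeR or DESeq2 in any comparison. Ifnb1, the interferon beta gene, had 257 counts over the 12 libraries and at most 51 in 1 library, a mean of 0.267 ± 0.106 CPM in the controls, 0.510 ± 0.273 with hairpin 1 and 0.488 ± 0.395 with hairpin 2 (SD, n = 4 each). Ifng, the interferon gamma gene, and Ifnz had 75 and 393 counts, and their differences between the hairpins were -0.52 (SE 0.94) and 0.24 (SE 0.40). At these counts changes in the ligands were hardly detectable. With hairpin 2 against the control, 1 ligand, Ifng, had an unadjusted p under 0.05, and between the hairpins none did.

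Of 13 receptor and kinase genes, none was called by edgeR between the hairpins. Before adjustment 4 had p under 0.05, against 3414 of the 17025 genes tested. With DESeq2, which called 7.97% of all genes tested in either direction, 2 of the 13 were lower. These were the 2 of smallest p, Ifngr2, a chain of the interferon gamma receptor, at -0.20 (SE 0.05, edgeR adjusted p = 0.0615), and Ifnar1, a chain of the type I receptor, at -0.17 (SE 0.04, adjusted p = 0.0642). Against the control both fell with hairpin 2, where edgeR called 5.76% of all genes tested. Ifngr2 went from 90.8 ± 9.3 to 73.8 ± 7.36 CPM (log2 -0.30, SE 0.05, adjusted p = 0.00946) and Ifnar1 from 75.8 ± 15.0 to 65.8 ± 11.5 CPM (log2 -0.20, SE 0.04, adjusted p = 0.0276; SD, n = 4). Ifngr2 also fell over both hairpins (-0.20, edgeR adjusted p = 0.0441), where edgeR called 1.79% of all genes tested. The calls with hairpin 2 passed in 14 and 2 of 16 fits that left out libraries, and that over both hairpins in 1 of 16.

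Sensing and its adaptors (16 of 17 genes tested) had no edgeR call between the hairpins, 4 unadjusted p under 0.05 and a median of -0.01. Of all 17025 genes tested, 3414 had such a p. The smallest p belonged to Adar and Myd88. Adar, which edits double-stranded RNA, was at 0.32 (SE 0.08, edgeR adjusted p = 0.0656). The adaptor Myd88 was at -0.19 (SE 0.05, edgeR adjusted p = 0.0821). Both passed with DESeq2, which called 7.97% of all genes tested. The 16 further antigen presentation genes had no call with edgeR or DESeq2, 1 unadjusted p under 0.05 and a median of -0.04. Tapbpl and Nlrc5 had the smallest p, and the abundant class I genes H2-K1 and B2m were at -0.17 (SE 0.10) and -0.12 (SE 0.11). These 2 lists thus showed no shared direction between the hairpins, and Psmb8 and Psmb9 were likewise near 0.

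Further interferon-induced genes outside the 35 (72 of 73 tested) had 3 that rose between the hairpins: Helz2 at 0.57, Gbp7 at 0.67 and Ifi203 at 0.69 (SE 0.12, 0.15 and 0.15; edgeR adjusted p = 0.0324, 0.0413 and 0.0391). Among all genes tested edgeR called 1.57% higher between the hairpins. The median of the 72 genes was 0.31 and 59 of 72 were positive, against 0.38 and 33 of 35 in the members. With hairpin 2 against the control 7 of the 72 rose, where edgeR called 2.83% of all genes tested higher. The nuclear body gene Sp100 had the highest estimate, from 18.8 ± 7.63 to 45.2 ± 19.4 CPM (SD, n = 4, log2 1.25, SE 0.19, edgeR adjusted p = 0.00781). It passed in all 16 fits that left out libraries. The other 6 were Ifi203 (0.94), Ifi204 (0.78), Ifi211 (0.82), Tgtp2 (1.20), Znfx1 (0.59) and Helz2 (0.63). They passed in 15, 9, 7, 3, 8 and 10 of 16 such fits, and the 3 calls between the hairpins, Helz2, Gbp7 and Ifi203, in 7, 4 and 5. DESeq2 called 12 of the 72 between the hairpins and 13 with hairpin 2 against the control, all higher, where it called 3.83% and 5.38% of all genes tested higher. Hairpin 1 against the control had none by edgeR or DESeq2 and 2 unadjusted p under 0.05 with edgeR. Over both hairpins Sp100 rose (0.86, edgeR adjusted p = 0.0375, 4 of 16 fits), where edgeR called 0.84% of all genes tested higher. Ifi203, Ifi204, Ifi211, Gbp7 and Tgtp2 belong to families of close copies, so their counts are uncertain. Without the replicate number no gene of any of these lists was called.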

How the data were processed

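RNA-seq of poly(A)-selected RNA, 12 libraries, 4 in each of 3 groups, was analysed. The authors deposited 1 table of raw gene counts, whose whole numbers served as the input here. Per the submitters' processing notes, mm10 was the build, and Trimmomatic 0.39, FastQC 0.74 and DESeq2 1.34.0 were among the tools. Which aligner, annotation and strand setting were used is not given in the sources used. Libraries were grouped by their labels. Genes with low counts were left out by edgeR's filterByExpr by group, which kept 17025 of 25861 genes. Counts were scaled by TMM and tested with edgeR 4.0.16 (quasi-likelihood test, R 4.3.3) in a model of group and replicate number fitted to all 12 libraries. P-values were adjusted by Benjamini-Hochberg over all genes tested, with a threshold of 0.05. SE was the log2 fold change divided by the root of the F statistic, and per-replicate differences were of log2 CPM with a prior count of 2. RPKM used exon lengths of GENCODE M21 (GRCm38). The scripts were tested on simulated data.

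Libraries of the same replicate number deviated together from their group means: correlations were 0.855 to 0.916 over 12 same-number pairs and -0.807 to 0.727 over 36 others. The replicate number is taken from the labels, which do not say what it marks. Total counts ran from 34988358 to 76329473 per library; depth therefore limits genes of few counts, such as the interferon ligands, more than the 35 members.

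Alternatives were a model without the replicate number, DESeq2 1.42.0, other scalings, no filter, only the groups compared, and fits without each library or replicate number. Members, lists and tests were chosen with earlier results of these data known. Values in every library are given for members past the threshold, filled up to 8 by the smallest p between the hairpins; in each role group the 1 or 2 genes highest per length are named. Of the other lists, genes past the threshold and the 2 of smallest p are named. Irf1, Irf9, Zbp1, Dtx3l, Trim25, Rsad2, Oas2, Oas3, Ifi44, Xaf1, Ifi35, Psmb9, H2-K1 and B2m were named after their values were seen.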

Additional observations from a re-analysis of the deposited data

Results flagged for a closer look

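In groups of 4, a value was singled out when its gap to the nearest other exceeded Dixon's critical share of the range for 4 values; chance does so in about 1 in 20 groups. Of 66 groups checked, 18 had such a value. Herc6 in the hairpin 2 libraries was 1, with replicate 1 at 37.2 CPM against 85.5 to 94.3 CPM in the other 3 (0.846 of the range). The median difference between hairpin 2 and hairpin 1 over the 35 genes was another, at 0.98 log2 CPM in replicate 4 (0.839 of the range).

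The other 16 were per-replicate differences of single members, among 35 checked, which share the same libraries. In 15 of them replicate 4 was the high value: 2.20 log2 CPM for Oas2 and for Oas3, 1.39 for Mx2, 1.37 for Oasl2, 1.36 for Ifi44, 1.30 for Isg15, 1.25 for Herc6, 1.21 for Zbp1, 1.11 for Xaf1, 1.08 for Usp18, 0.98 for Bst2, 0.79 for Dhx58, 0.74 for Ifih1, 0.69 for Eif2ak2 and 0.47 for Irf9. For Ifi27 replicate 3 was the low value, at -0.26. Hairpin 1 replicate 4 had the lowest summed level of the 35 genes of all 12 libraries, 2620 CPM, and hairpin 2 replicate 4 had the highest fibroblast sum, 9470 CPM.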

How the results depend on the processing

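In the main model 2, 0, 2 and 0 members were called for hairpin 2 against hairpin 1, hairpin 1 against control, hairpin 2 against control and both hairpins against control. Without the replicate block the counts were 0 in all 4, and 1 gene of 17025 was called in each. Between the hairpins Stat2 was then at 0.51 (SE 0.29), against 0.54 (SE 0.12) with the block. DESeq2 with the block called 6, 1, 7 and 1, and 1357, 570, 1806 and 1077 of all 17025 genes, against 585, 124, 981 and 304 with edgeR. With no filter the counts were 4, 0, 5 and 0, and 644, 152, 1041 and 393 of 24262 genes. With total counts alone they were 3, 0, 3 and 0, and 598, 112, 899 and 244 of 17025 genes. Upper-quartile scaling gave 2, 0, 2 and 0 with the same genes. Fits of only the groups compared called 1, 1 and 0: Samhd1 between the hairpins, where Stat2 and Parp9 lost their calls, and Parp9, lower, for hairpin 1. Of all genes tested these fits called 3.06%, 2.39% and 0.588%, against 3.44%, 0.728% and 5.76% in the main model. Fits of replicates 1 and 2 or of replicates 3 and 4 alone called 0 in each comparison, from fewer libraries. Of all genes tested, the first called 0.506%, 0.0542%, 0.494% and 0.151%. The second called 0.254%, 0.00605%, 1.98% and 0.0303%. The cause of these changes was not tested. Over 16 fits that left out 1 library or 1 replicate number, the counts ran from 0 to 3 for hairpin 2 against hairpin 1. They ran from 0 to 5 for hairpin 2 against control and stayed at 0 in the other 2. In the same fits 0.381% to 3.95% of all genes tested were called between the hairpins and 1.13% to 6.12% for hairpin 2. For hairpin 1 the share was 0.00583% to 2.02%, and for both hairpins 0.15% to 3.26%. The medians of the members ran from 0.17 to 0.48 between the hairpins, from -0.14 to 0.06 for hairpin 1, from 0.11 to 0.48 for hairpin 2 and from 0.02 to 0.24 for both. No called value changed its sign in any alternative run. Without the block the medians were 0.30, 0.02, 0.27 and 0.14. The interaction count was 0 in each of the 5 settings run.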

Other observations

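Markers of plasmacytoid dendritic cells, known as strong producers of type I interferon, and of lymphocytes were measured as well. The 8 plasmacytoid markers summed to 14.3 to 38.0 CPM over the 12 libraries, and the defining marker Siglech had at most 5 counts in a library and 0 in the 3 replicate 3 libraries. The 16 T, B and NK cell markers summed to 5.31 to 14.2 CPM in replicates 1 and 2 and to 0.891 to 1.89 CPM in replicates 3 and 4. Between the hairpins none of either list was called by edgeR or DESeq2, with 1 and 0 at an unadjusted p under 0.05. The 11 endothelial markers summed to 6 to 17.0 CPM, and none was called by edgeR between the hairpins (1 at an unadjusted p under 0.05; DESeq2 called Erg, higher). Of the 12 epithelial markers none was called by edgeR between the hairpins (3 at an unadjusted p under 0.05, median -0.03; DESeq2 called Epcam, lower), and Epcam fell with hairpin 2 against the control.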
